A study of Mus musculus with 8 samples.

Results

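The mRNA levels of 31 genes of cholesterol and fatty acid synthesis were compared between E-cadHI and E-cadLO tumor cells of breast cancer brain metastases (BCBM). The genes were taken by name from the gene table. They are 16 enzymes of sterol synthesis, 9 enzymes that make, elongate and desaturate fatty acids, and 6 others, namely the transcription factors Srebf1 and Srebf2, their escort Scap, their retention proteins Insig1 and Insig2, and the sterol carrier Stard4. These are 31 of the 31894 genes with an identifier, and all 31 were among the 13598 genes with enough counts to be tested. The tumor cells descend from the PyMT mouse model, in which the polyoma middle T antigen drives mammary carcinoma, and their E-cadherin bears a fluorescent tag, mCFP, as a reporter. Organoids of a tumor line that had been passaged serially through the brain were injected intracranially into mice, for which the labels give the strain FVB, the genotype wild type and no drug or diet. The tumor of each of 4 mice was sorted by its CFP signal into E-cadHI cells, which kept the reporter, and E-cadLO cells, which lost it, to ask how their transcriptomes differ. The result is 8 bulk mRNA libraries, 4 per group, and the labels number the mice 57, 58, 67 and 70. All tumors come from a single enriched line, the labels give no ages, and the authors checked the purity of the sort in CFP-positive cells alone.

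Cholesterol is built from acetyl-CoA through mevalonate and squalene to lanosterol, which is then converted to cholesterol in the endoplasmic reticulum. Fatty acids start from the same acetyl-CoA, which Acly makes from citrate, Acaca carboxylates and Fasn joins into chains. Both pathways are under the control of the sterol regulatory element-binding proteins (SREBPs), the products of Srebf1 and Srebf2, which Scap carries to the Golgi when sterols are low and Insig proteins hold back when sterols are high. The brain makes its own cholesterol, and a large share of it goes into the myelin of oligodendrocytes.

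The libraries held 9102781 to 15769200 counts, and the lowest count of any of the 31 genes in a library was 64, for Tm7sf2. Levels are given below as CPM, counts scaled to a common library total, after TMM scaling, which adjusts for differences in library composition. A floor of 3 counts stands for 0.190 to 0.330 CPM before TMM scaling. The 11 epithelial markers were detected in every library, with a summed level of 7700 to 10420 CPM in E-cadHI and 5768 to 14630 CPM in E-cadLO cells, lowest in the E-cadLO library of mouse 57. Cdh1, which encodes E-cadherin, had a lower mRNA level in E-cadLO cells of mice 57, 67 and 70 (log2 ratios -0.66, -0.15 and -0.86). It was higher in mouse 58 (log2 ratio 0.46). Cdh1 was not called in edgeR, with a log2 fold change of -0.31 with the mouse as a replicate block (adjusted p = 0.482) and -0.17 without it (adjusted p = 0.809). Markers of host cells were present as well and were mostly higher in E-cadLO libraries. All 12 microglia and macrophage markers were higher in E-cadLO cells of every mouse, with sums of 36.5 to 285 CPM in E-cadHI and 158 to 1018 CPM in E-cadLO cells. The 9 oligodendrocyte markers summed to 563 to 8641 CPM in E-cadHI and 1324 to 34650 CPM in E-cadLO cells, and the 9 astrocyte markers to 1148 to 3784 CPM and 732 to 10680 CPM. Mouse 70 had the highest oligodendrocyte and astrocyte sums in both groups. The 9 fibroblast and mural markers summed to 9.34 to 64.2 CPM in E-cadHI and 26.6 to 1202 CPM in E-cadLO cells, where the E-cadLO library of mouse 57 stood highest. The remaining sums were those of 8 neuron markers (1.95 to 89.5 CPM in E-cadHI, 31.2 to 363 CPM in E-cadLO), of 8 endothelial markers (41.7 to 76.7 CPM and 48.0 to 103 CPM) and of 6 neutrophil markers (15.8 to 24.9 CPM and 6.84 to 25.8 CPM). Single genes dominated some sums. In E-cadHI cells of mouse 57, Flt1 made 40.4 of 41.7 CPM (endothelial) and S100a8 22.9 of 23.2 CPM (neutrophil). Aldoc made 1005 of 1148 CPM (astrocyte) there. In E-cadLO cells of that mouse Aldoc had 124 CPM, while 7 astrocyte markers were higher and 2 lower. Among oligodendrocyte markers, Cnp made 328 of 563 CPM in E-cadHI cells of mouse 57 and was lower in E-cadLO cells of 3 mice. Mbp and Mobp made 20110 and 11680 of 34650 CPM in E-cadLO cells of mouse 70. Of the 9 oligodendrocyte markers, 2, 4, 1 and 0 were lower in E-cadLO cells of mice 57, 58, 67 and 70. Apart from neutrophil markers, those at 0 in at least 1 library included Siglech, Stmn2, Slc17a7, Cldn5, Vwf, Kdr, Emcn, Lum and Pdgfrb. The part of these cells in the differences below was not tested, and in bulk libraries fewer cells of a type and less RNA per cell cannot be told apart.

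**Figure D1:**
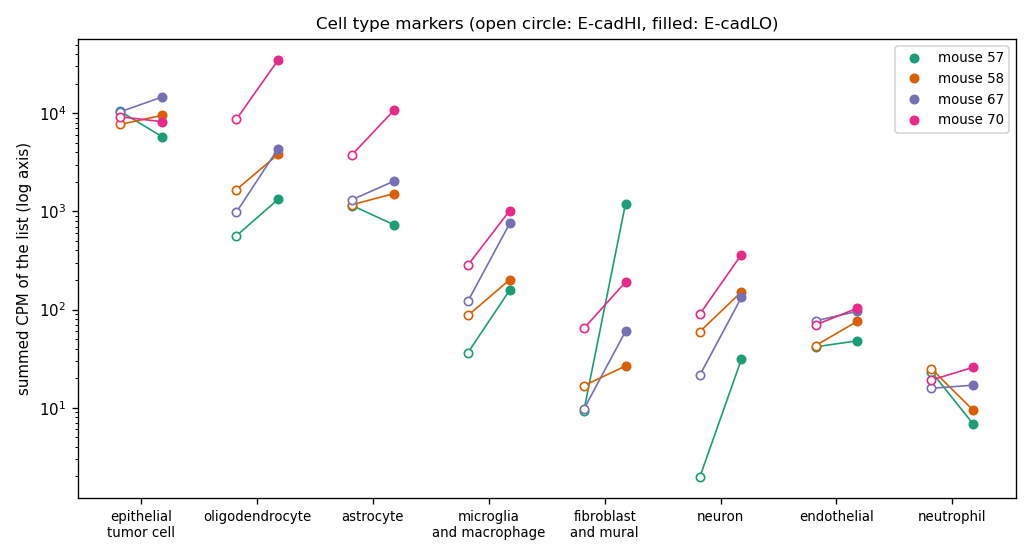
Summed CPM of 8 lists of cell type markers (log axis) in the 8 libraries, with open circles for E-cadHI, filled circles for E-cadLO and a line for each mouse. The E-cadLO library of mouse 70 stands highest for oligodendrocyte (34650 CPM) and astrocyte markers (10680 CPM), and that of mouse 57 highest for fibroblast and mural markers (1202 CPM) and lowest for epithelial markers (5768 CPM).

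No gene of either pathway passed the threshold of 0.05 on the adjusted p in edgeR's quasi-likelihood test, which over the whole table called 0.0% of 13598 genes. A second fit took the mouse as a replicate block, so that the paired populations of an animal were compared. There edgeR called 0.728% of the genes, all of them higher in E-cadLO cells, and again none of the 31. A p above the threshold does not show that levels were equal. The estimates nevertheless lay mostly below 0. With the block, 25 of the 31 genes had a lower estimate in E-cadLO cells and the median log2 fold change was -0.29, while the median over all 13598 genes was 0.03. An unadjusted p under 0.05 in the downward direction was reached by 6 of the 31 genes with the block (19.4%, against 7.33% of all genes), namely Stard4, Ebp, Fdps, Nsdhl, Acly and Acaca. Without the block, 5 reached it (16.1%, against 5.81% of all genes), and the gene missing from the list was Acaca. The 6 genes Fdps, Hsd17b7, Ebp, Acaca, Fasn and Stard4 were lower in E-cadLO cells in each of the 4 mice (19.4%, against 14.2% of all genes). Acaca was nearly tied in mouse 70 (36.1 and 36.0 CPM) and Hsd17b7 in mouse 67 (37.4 and 37.0 CPM). The log2 ratio was also close to 0 for Fasn in mouse 57 (-0.03) and for Fdps in mouse 70 (-0.06). None of the 31 was higher in all 4 mice (16.8% of all genes were). Genes of a pathway share regulation and are not independent replicates, so these shares are descriptions.

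**Figure D2:**
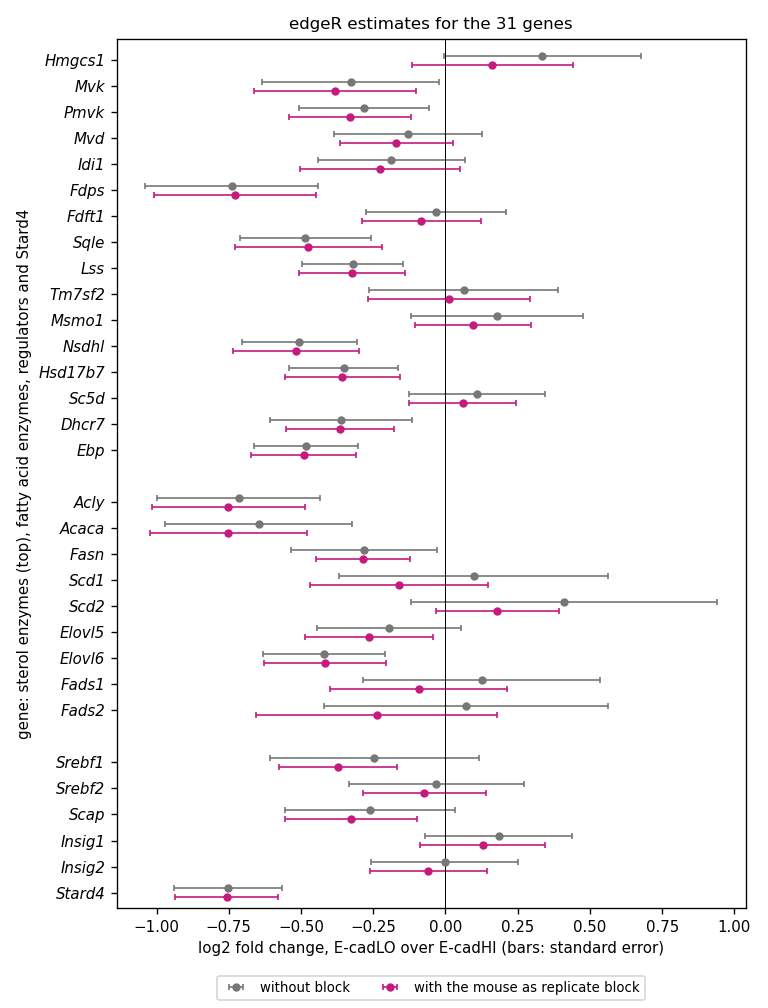
Log2 fold change of E-cadLO over E-cadHI (horizontal axis) with its standard error for each of the 31 genes (vertical axis), from edgeR without the block (grey) and with the mouse as a replicate block (magenta). Stard4, Acly, Acaca and Fdps have the lowest estimates with the block, from -0.76 to -0.73, and Scd2 and Hmgcs1 the highest, at 0.18 and 0.16.

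Of the 16 sterol enzymes, 12 had a lower estimate in E-cadLO cells. The median log2 fold change was -0.30 without and -0.33 with the block. The median log2 ratio of E-cadLO over E-cadHI, computed on CPM plus 0.5, was -0.45, -0.37 and -0.41 in mice 57, 58 and 67, and 0.26 in mouse 70. Over all tested genes the same median lay between 0.00 and 0.07. In numbers of enzymes, 14, 15 and 13 of the 16 were lower in mice 57, 58 and 67, and only 4 in mouse 70. The direction of the arm was thus shared by 3 mice and reversed in mouse 70, and without mouse 70 the median fold change was -0.43, while without mouse 57 it was -0.13.

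**Figure D3:**
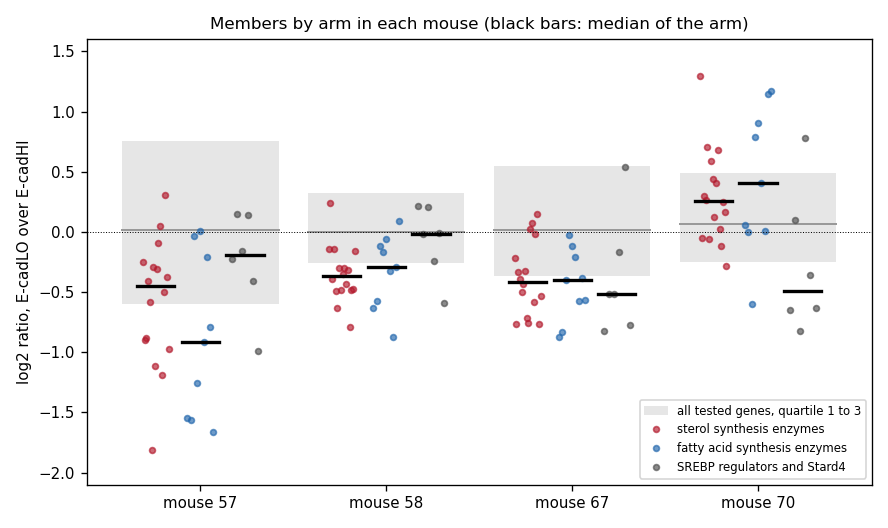
Log2 ratio of E-cadLO over E-cadHI (CPM plus 0.5) of each of the 31 genes, drawn by mouse and by arm, with black bars for the median of an arm, grey boxes for the quartile range of all tested genes and grey lines for their median. The sterol and fatty acid medians lie between -0.92 and -0.29 in mice 57, 58 and 67 and at 0.26 and 0.40 in mouse 70.

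The first steps of the arm lead from acetyl-CoA units to farnesyl diphosphate. Fdps, which makes farnesyl diphosphate, the branch point to sterols and to prenylated proteins, had the lowest estimate of the arm. In E-cadHI cells, Fdps had 233, 107, 133 and 139 CPM in mice 57, 58, 67 and 70, and in E-cadLO cells 66.0, 69.1, 97.9 and 133 CPM. It was lower in E-cadLO cells of every mouse, by a log2 ratio of -1.81 in mouse 57 and of only -0.06 in mouse 70, and the groups overlapped. The log2 fold change was -0.73 ± 0.28 (SE) with the block (edgeR, adjusted p = 0.221) and -0.74 ± 0.30 without it (adjusted p = 0.330). About 24.3% of the 65-base windows of the Fdps transcripts also occur in transcripts of 7 other genes, mostly predicted ones, so its count may be split between them. The other 5 genes of this segment had estimates nearer to 0 or above it. Mvk and Pmvk, the kinases that phosphorylate mevalonate in sequence, had log2 fold changes of -0.38 and -0.33 with the block, the decarboxylase Mvd -0.17 and the isomerase Idi1 -0.23. Hmgcs1, which condenses acetyl-CoA and acetoacetyl-CoA into HMG-CoA, had the highest estimate of the arm at 0.16.

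Hmgcs1 shows how mouse 70 differed. Its level was nearly the same in the 4 E-cadHI libraries, at 113, 125, 113 and 114 CPM in mice 57, 58, 67 and 70. In E-cadLO cells it was 94.95, 113 and 96.7 CPM in mice 57, 58 and 67 but 281 CPM in mouse 70. The log2 ratio was therefore slightly below 0 in 3 mice (-0.25 to -0.14) and 1.30 in mouse 70, and the log2 fold change went from 0.34 to -0.19 without mouse 70.

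Squalene is made, oxidised and cyclised by Fdft1, Sqle and Lss. Sqle, the monooxygenase and a rate-limiting step after HMG-CoA reductase, had 297, 250, 240 and 156 CPM in E-cadHI cells of mice 57, 58, 67 and 70. In E-cadLO cells it had 137, 179, 145 and 212 CPM. It was lower in 3 mice and higher in mouse 70 (log2 ratio 0.44), and its log2 fold change was -0.47 ± 0.25 (SE) with the block (edgeR, adjusted p = 0.330). Lss, the cyclase that forms lanosterol, had -0.32, and Fdft1, the squalene synthase, -0.08. Reads of Fdft1 are uncertain, since it overlaps Ctsb, whose count is 21.1 times that of Fdft1, and 23.4% of its windows are shared.

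The steps after lanosterol remove methyl groups and move double bonds. Ebp, the isomerase that shifts the sterol double bond, had 106, 78.4, 102 and 104 CPM in E-cadHI cells of mice 57, 58, 67 and 70, and 53.9, 70.3, 70.4 and 85.0 CPM in E-cadLO cells. It was lower in all 4 mice, with log2 ratios from -0.97 to -0.16, although the highest E-cadLO value lay above the lowest E-cadHI value. Its log2 fold change was -0.49 ± 0.18 (SE) with the block (edgeR, adjusted p = 0.215) and -0.48 ± 0.18 without it (adjusted p = 0.311). Nsdhl, the dehydrogenase that takes part in removing the methyl groups at C4, had 102, 81.1, 100 and 73.8 CPM in E-cadHI cells and 44.2, 65.1, 66.6 and 75.1 CPM in E-cadLO cells, in the same order of mice. It was lower in mice 57, 58 and 67 and about level in mouse 70 (log2 ratio 0.03), with a log2 fold change of -0.52 ± 0.22 (SE) with the block (edgeR, adjusted p = 0.249). Dhcr7, the reductase of the last step of a route to cholesterol, had 128, 116, 87.9 and 71.4 CPM in E-cadHI cells and 98.5, 83.6, 51.6 and 80.2 CPM in E-cadLO cells. It followed the same pattern, lower in 3 mice and higher in mouse 70, with a log2 fold change of -0.36 ± 0.19 (SE) with the block (edgeR, adjusted p = 0.313). Hsd17b7, the ketoreductase that works beside Nsdhl, was lower in all 4 mice, though by a log2 ratio of only -0.02 in mouse 67. Its log2 fold change was -0.36. The other 3 enzymes were near 0. Msmo1, the C4 methyl oxidase, had 0.09, Sc5d, the C5 desaturase, 0.06, and the reductase Tm7sf2 0.01, each with the block. Tm7sf2 overlaps Vps51, whose count is 3.27 times as high.

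**Figure D4:**
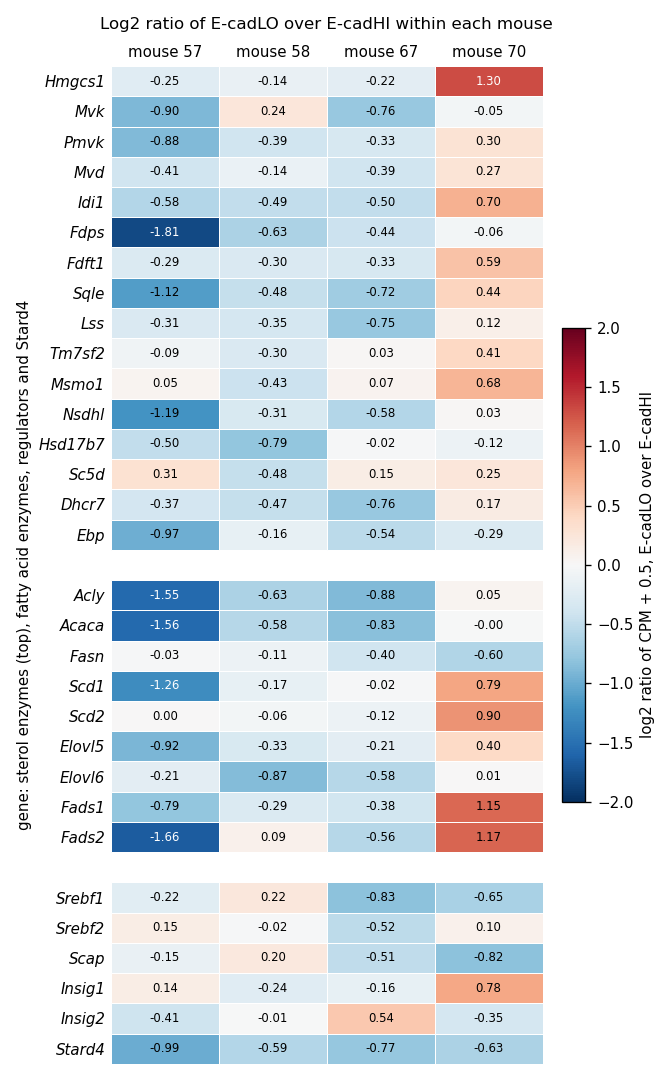
Log2 ratio of E-cadLO over E-cadHI within each mouse (columns) for the 31 genes (rows, in 3 blocks from top to bottom for sterol enzymes, fatty acid enzymes, and regulators with Stard4), in blue where lower and red where higher in E-cadLO cells. Columns 57, 58 and 67 are mostly blue, with 26, 27 and 27 of the 31 genes lower, and column 70 is mostly red, with 10 lower.

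Of the 9 fatty acid enzymes, 5 had a lower estimate without the block and 8 with it, and the median log2 fold change was -0.20 and -0.26. The arm followed the sterol enzymes from mouse to mouse. The median log2 ratio was -0.92, -0.29 and -0.40 in mice 57, 58 and 67 and 0.40 in mouse 70, and 8, 8, 9 and 2 of the 9 enzymes were lower in these mice. Without mouse 57 the median fold change was -0.03, and without mouse 70 it was -0.47.

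The supply of building blocks, Acly and Acaca, had the lowest estimates of the arm. Acly, the citrate lyase that makes cytosolic acetyl-CoA for both pathways, had 710, 816, 591 and 460 CPM in E-cadHI cells of mice 57, 58, 67 and 70. In E-cadLO cells it had 242, 527, 322 and 478 CPM. It was lower by log2 ratios of -1.55, -0.63 and -0.88 in mice 57, 58 and 67 and level in mouse 70 (0.05). Its log2 fold change was -0.75 ± 0.27 (SE) with the block (edgeR, adjusted p = 0.202) and -0.72 ± 0.28 without it (adjusted p = 0.322). Acaca, the acetyl-CoA carboxylase that commits acetyl-CoA to fatty acids, had 35.6, 48.8, 40.1 and 36.1 CPM in E-cadHI and 11.7, 32.6, 22.3 and 36.0 CPM in E-cadLO cells. The difference was larger in mice 57, 58 and 67 and the values were nearly tied in mouse 70 (log2 ratio -0.0037), with a log2 fold change of -0.75 ± 0.27 (SE) with the block (edgeR, adjusted p = 0.207) and -0.65 ± 0.32 without it (adjusted p = 0.393). Of the Acaca windows, 28.1% are shared with other genes. Acly shares none.

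Fasn, the synthase that builds palmitate, had 166, 271, 170 and 262 CPM in E-cadHI cells of mice 57, 58, 67 and 70 and 162, 250, 128 and 173 CPM in E-cadLO cells. It was the enzyme of this arm that ran against the others across mice, since its lowest log2 ratio was in mouse 70 (-0.60) and its highest in mouse 57 (-0.03). The log2 fold change was -0.29 ± 0.16 (SE) with the block (edgeR, adjusted p = 0.352). Elovl6, the elongase that extends palmitate, had 28.9, 41.3, 43.1 and 33.4 CPM in E-cadHI and 24.9, 22.3, 28.7 and 33.6 CPM in E-cadLO cells of the same mice. Mice 57, 58 and 67 were lower and mouse 70 was level, with a log2 fold change of -0.42 ± 0.21 (SE) with the block (edgeR, adjusted p = 0.307). Elovl5, which extends polyunsaturated chains, had 128, 125, 102 and 121 CPM in E-cadHI and 67.4, 99.5, 88.3 and 161 CPM in E-cadLO cells. Here 3 mice were lower and mouse 70 was higher (-0.26 ± 0.22, SE, adjusted p = 0.521).

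The 4 desaturases differed widely between mice. Scd1 and Scd2, which place the first double bond in saturated chains, and Fads1 and Fads2, which desaturate polyunsaturated chains, were higher in E-cadLO cells of mouse 70, with log2 ratios of 0.79, 0.90, 1.15 and 1.17. In that library Scd1 had 688 CPM (125 to 229 CPM in the other E-cadLO libraries), Scd2 815 CPM (171 to 266), Fads1 297 CPM (79.0 to 139) and Fads2 139 CPM (23.5 to 93.3). In mouse 57 the same genes had log2 ratios of -1.26, 0.00, -0.79 and -1.66. With the block, the log2 fold changes were -0.16, 0.18, -0.09 and -0.24, with standard errors from 0.21 to 0.42, and without the block Scd1, Fads1 and Fads2 had estimates above 0 (0.10, 0.12 and 0.07). The E-cadLO library of mouse 70 is also the one with the highest oligodendrocyte and astrocyte markers, with 20110 CPM of Mbp, which encodes a myelin protein, against 831 to 2377 CPM in the other E-cadLO libraries. All 9 oligodendrocyte and all 9 astrocyte markers were higher in E-cadLO cells of this mouse, and their part in its lipid genes was not tested. The lower values of mouse 57 stand beside lower epithelial markers, of which 10 of 11 were lower in E-cadLO cells of this mouse, with a median log2 ratio of -0.86, and beside 7 of 7 tested fibroblast and mural markers that were higher. Their part was not tested either.

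**Figure D5:**
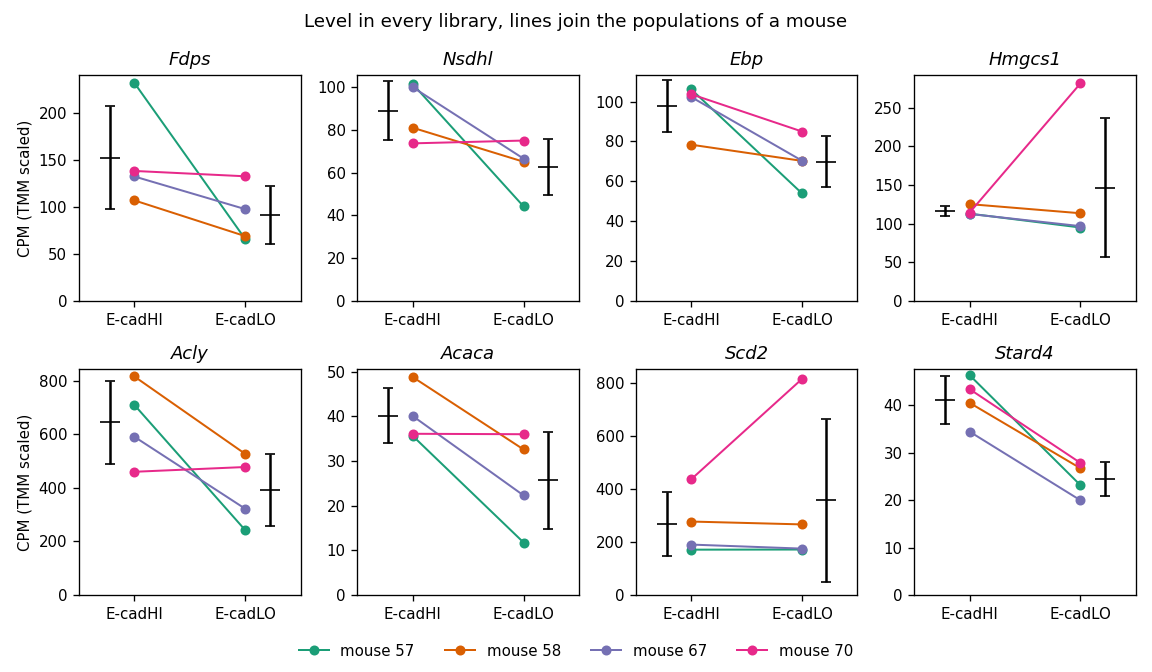
CPM after TMM scaling (vertical axes from 0) of 8 of the genes in E-cadHI and E-cadLO cells, with a line for each mouse and black bars for mean ± SD (n = 4). Stard4 is lower in E-cadLO cells of every mouse and its groups do not overlap (4.2% of all genes were so). Hmgcs1 and Scd2 have high values of 281 and 815 CPM in E-cadLO cells of mouse 70.

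Among the regulators and Stard4, the lowest estimate was that of Stard4. Stard4 (chromosome 18, 33199355 to 33213862, GRCm38) encodes a carrier that moves cholesterol between membranes of the cell and is itself a target of SREBP. It had 46.4, 40.6, 34.5 and 43.5 CPM in E-cadHI cells of mice 57, 58, 67 and 70 and 23.2, 26.8, 19.99 and 27.9 CPM in E-cadLO cells. All 4 E-cadLO values lay below all 4 E-cadHI values. Of the 31 genes only Stard4 was so (3.2%), a share not above the 4.2% of all genes. The log2 ratios were -0.99, -0.59, -0.77 and -0.63, so that mouse 70 did not depart from the others here. The log2 fold change was -0.76 ± 0.18 (SE) with the block (edgeR, adjusted p = 0.113) and -0.75 ± 0.19 without it (adjusted p = 0.256), a level of 59.2% of that in E-cadHI cells. DESeq2 called it, with an adjusted p of 0.0363 without the block (0.294% of the genes it tested were called lower) and of 0.0104 with the block (1.51% called lower). In simulated counts with known changes, a larger share of DESeq2's calls than of edgeR's was false, with and without the block. Those counts held no effect of the mouse, so they cannot grade calls with the block in paired libraries. Over all 16 alternatives the log2 fold change of Stard4 stayed between -0.79 and -0.69, and its adjusted p between 0.0104 and 0.680.

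The sensors and factors of the SREBP system differed in direction from mouse to mouse. Together with Stard4, 5 of the 6 genes of this group had a lower estimate with the block. The median log2 ratio of the 6 genes was -0.19, -0.01, -0.52 and -0.49 in mice 57, 58, 67 and 70. Srebf1, whose product mainly drives fatty acid genes, had 95.1, 128, 71.6 and 104 CPM in E-cadHI cells of mice 57, 58, 67 and 70 and 81.5, 149, 40.1 and 66.3 CPM in E-cadLO cells. It was lower in 3 mice and higher in mouse 58, with a log2 fold change of -0.37 ± 0.21 (SE) with the block (edgeR, adjusted p = 0.339). Scap, the escort and sterol sensor, had 28.9, 34.9, 23.9 and 34.7 CPM in E-cadHI and 25.9, 40.3, 16.6 and 19.4 CPM in E-cadLO cells. It went with Srebf1 in each mouse, lower in mice 57, 67 and 70 and higher in mouse 58 (-0.33 ± 0.23, SE, adjusted p = 0.440). Srebf2, whose product mainly drives sterol genes, had 25.3, 29.2, 18.4 and 18.4 CPM in E-cadHI and 28.1, 28.9, 12.7 and 19.7 CPM in E-cadLO cells. Its groups largely overlapped, and its log2 fold change was -0.07 ± 0.21 (SE) with the block (edgeR, adjusted p = 0.872).

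Insig1 and Insig2 hold the complex of Scap and SREBP in the endoplasmic reticulum, and Insig1 is a target of SREBP itself. Insig1 had 40.1, 41.7, 30.8 and 35.8 CPM in E-cadHI and 44.3, 35.1, 27.5 and 61.7 CPM in E-cadLO cells of mice 57, 58, 67 and 70. Like Hmgcs1 it was highest in E-cadLO cells of mouse 70 (log2 ratio 0.78), and its log2 fold change was 0.13 ± 0.22 (SE) with the block (edgeR, adjusted p = 0.764). Insig2 had 50.7, 55.9, 61.4 and 71.6 CPM in E-cadHI and 38.0, 55.5, 89.7 and 55.8 CPM in E-cadLO cells. It was higher in mouse 67 and lower or level in the others, with a log2 fold change of -0.06 ± 0.20 (SE) with the block (edgeR, adjusted p = 0.889). In mouse 70, where 12 of 16 sterol enzymes and 7 of 9 fatty acid enzymes were higher in E-cadLO cells, the regulators were split. Srebf1, Scap and Insig2 were lower there (log2 ratios -0.65, -0.82 and -0.355), and Srebf2 and Insig1 were higher (0.10 and 0.78).

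The promoters of these genes were searched for short motifs linked to SREBP. In RefSeq windows of 300 bases (250 before and 50 after a start, build GRCm38.p6), 24 of the 31 genes were matched, and those without a window were Fdft1, Fdps, Sqle, Scd1, Scd2, Fads1 and Stard4. Windows were searched on both strands for CCAAT, the site of NF-Y, which acts beside SREBP, for CACGTG, an E-box that SREBP1 can bind, and for TCACNCCAC, a form of the sterol regulatory element. CCAAT was found in 20 of the 24 genes (83.3%), against 41.1% of all 27025 genes of the table, and in 13 of 13 sterol enzymes. CACGTG was found in 6 of 24 (25%, against 8.1%) and TCACNCCAC in 1 of 24 (4.2%, against 1.4%), Hmgcs1. A match is a description of the letters and not a bound site. The 27025 genes include genes that were not tested here, and the shares among tested genes alone were not counted. The stretches before the start are shown for 5 genes with different values here, Hmgcs1 as the sterol enzyme with the highest ratio in mouse 70, Nsdhl, Hsd17b7 and Ebp as sterol enzymes with lower estimates and Fasn as the fatty acid synthase. They are at chr13:119690101-119690325 (plus strand), chrX:72918397-72918520 (plus), chr1:169969259-169969385 (minus), chrX:8193548-8193697 (minus) and chr11:120824587-120824652 (minus). Capitals mark the motifs, where ATTGG is CCAAT on the other strand and the capitals of Fasn include a pair of overlapping sites.
Hmgcs1: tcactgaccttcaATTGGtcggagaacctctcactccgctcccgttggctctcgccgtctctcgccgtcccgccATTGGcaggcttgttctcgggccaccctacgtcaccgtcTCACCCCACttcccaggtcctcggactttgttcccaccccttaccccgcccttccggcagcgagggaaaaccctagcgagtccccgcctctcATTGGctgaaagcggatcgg
Nsdhl: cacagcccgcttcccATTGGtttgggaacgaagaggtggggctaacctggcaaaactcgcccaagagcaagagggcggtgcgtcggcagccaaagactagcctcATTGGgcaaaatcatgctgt
Hsd17b7: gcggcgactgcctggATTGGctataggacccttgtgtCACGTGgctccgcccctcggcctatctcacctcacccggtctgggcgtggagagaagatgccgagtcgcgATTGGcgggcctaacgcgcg
Ebp: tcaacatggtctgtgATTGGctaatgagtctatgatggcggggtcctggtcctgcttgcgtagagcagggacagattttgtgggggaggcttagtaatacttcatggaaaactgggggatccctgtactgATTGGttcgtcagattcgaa
Fasn: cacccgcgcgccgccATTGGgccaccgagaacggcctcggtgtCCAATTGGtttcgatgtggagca

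The Hmgcs1 stretch has the sterol regulatory element among 3 CCAAT boxes, and the stretches of Nsdhl and Ebp have 2 CCAAT boxes each without the other motifs. In Hsd17b7 an E-box lies between the CCAAT boxes. With the block the estimates of these 5 genes ranged from -0.52 for Nsdhl to 0.16 for Hmgcs1, and none of them passed the threshold. The estimate of Hmgcs1 is below 0 without mouse 70.

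Other genes of sterol synthesis, SREBP processing and fatty acid handling were taken from 4 further lists. None of the 6 other sterol synthesis genes was called by edgeR or DESeq2, with or without the block, and 3 had a higher and 3 a lower estimate with the block. Among them Acat2, which makes acetoacetyl-CoA for the pathway, had a log2 fold change of -0.87 ± 0.32 (SE, adjusted p = 0.214 with the block), and Ggps1, which makes geranylgeranyl diphosphate for protein prenylation, 0.32. None of the 10 tested genes among 11 SREBP processing genes and targets was called by edgeR, with 4 estimates higher and 6 lower with the block. Pnpla3, a lipid droplet enzyme with low counts here, had 1.42 ± 0.46 (SE, edgeR, adjusted p = 0.182 with the block) and was the only one of them that DESeq2 called, with the block alone (adjusted p = 0.0382), where it called 7.19% of all genes higher. Tmem97, a sterol-binding membrane protein, had -0.51 ± 0.19 (SE, edgeR, adjusted p = 0.219 with the block). Of 18 further genes of fatty acid and glycerolipid synthesis, none was called by edgeR and 15 had a lower estimate with the block, with a median log2 fold change of -0.37. Acsl4, which activates polyunsaturated fatty acids, was lower in all 4 mice, with log2 ratios of -1.25, -0.80, -0.34 and -0.58, and a log2 fold change of -0.74 ± 0.20 (SE, edgeR, adjusted p = 0.143 with the block). Thrsp, a lipogenic nuclear protein, was likewise lower in all 4, with -1.10 ± 0.34 (SE, edgeR, adjusted p = 0.174). DESeq2 with the block called both lower (adjusted p = 0.00836 for Acsl4 and 0.0160 for Thrsp), where it called 1.51% of all genes lower. Dgat2, an acyltransferase of triglyceride synthesis, is named after its values were seen. It had 1.255, 1.998, 1.04 and 2.37 CPM in E-cadHI and 11.1, 2.56, 3.70 and 6.01 CPM in E-cadLO cells of mice 57, 58, 67 and 70, higher in every mouse and without overlap between the groups (3.9% of all genes were so). Its log2 fold change was 1.66 ± 0.57 (SE, edgeR, adjusted p = 0.195 with the block). DESeq2 called Dgat2 higher without the block (adjusted p = 0.0427, 2.64% of all genes called higher) and with it (adjusted p = 0.0492, 7.19% called higher). Of the same 18 genes, 2 others were lower without overlap between the groups (4.2% of all genes were so).

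Of the 11 genes of sterol efflux, storage and the LXR response, 7 had a higher estimate with the block, beside 7098 of all 13598 genes. The median log2 fold change was 0.30, and the median log2 ratio was above 0 in every mouse, at 0.33, 0.27, 0.41 and 0.63 in mice 57, 58, 67 and 70. Apoe, the lipoprotein that carries sterols between brain cells and is abundant in astrocytes and microglia, was the only gene of this list called by edgeR. With the block, DESeq2 called Apoe and 3 others, Abcg1, Soat1 and Ch25h, higher, where it called 7.19% of all genes higher. Without the block it called none of the list. Apoe had 18.9, 267, 118 and 1780 CPM in E-cadHI cells of mice 57, 58, 67 and 70 and 171, 687, 834 and 6367 CPM in E-cadLO cells, higher in every mouse. It rose by a log2 fold change of 2.29 ± 0.34 (SE) with the block (edgeR, adjusted p = 0.0362) and was not called without it (1.88 ± 1.36, adjusted p = 0.515). The microglia and astrocyte markers, whose medians were above 0 in all 4 mice, stand beside it, and their part was not tested. Ch25h, which makes 25-hydroxycholesterol, had 0.00 to 2.98 CPM in E-cadHI and 0.82 to 13.1 CPM in E-cadLO cells and did not pass the threshold in edgeR (adjusted p = 0.143 with the block). Lipa, the lysosomal lipase that frees cholesterol from its esters, is named after its values were seen. It had 469, 233, 416 and 234 CPM in E-cadHI and 140, 195, 225 and 203 CPM in E-cadLO cells of mice 57, 58, 67 and 70. It was lower in every mouse and the groups did not overlap (4.2% of all genes were so). The log2 fold change of Lipa was -0.77 ± 0.27 (SE) with the block (edgeR, adjusted p = 0.203).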

How the data were processed

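The authors prepared TruSeq mRNA libraries, sequenced 65-base single reads, mapped them with HISAT2 2.1.0 to GRCm38 and deposited whole-number counts per gene without normalization. The study's methods name Icount for counting and the submitters' processing notes name HTSeq, and strand and multi-mapping reads are not described in the sources used here. The table has 365 entries with no gene identifier, which were not used and held 0.0636% to 0.0954% of a library's counts. Total counts were 9102781 to 15769200, and intervals and floors cover counting error only. Gm42418 took 2.23% to 14.4% of the counts. No pair of libraries was within sampling noise (smallest chi-square per degree of freedom 27.7).

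These counts were tested in edgeR 4.0.16 (R 4.3.3) after TMM scaling, filterByExpr by group, the quasi-likelihood test and Benjamini-Hochberg adjustment over 13598 genes. The main fit had no block, since the study's methods name none. The populations of a mouse come from the same animal according to the labels, so a fit that adds the mouse as replicate block is printed too. Deviations of same-mouse libraries correlated by 0.248 to 0.692 (4 pairs) and those of different mice by -0.541 to 0.144 (12 pairs). The standard errors given for edgeR were derived from the test, as the absolute log2 fold change divided by the square root of its F statistic. Differences within a mouse are log2 ratios of CPM plus 0.5. Alternatives were DESeq2 1.42.0 with and without the block, its size factors in edgeR, no filter, at least 10 counts in every library, a robust fit, Gm42418 left out, each mouse left out, and 0.1 or 2 in place of 0.5. The fits were tested on simulated data that held no effect of the mouse. Shared 65-base windows were counted in GENCODE M21 transcripts. Values in every library are given for the regulators, Stard4 and the 5 enzymes per arm with the smallest p with the block, and other pathway genes were named only when called or among the 2 smallest p of their list. Hmgcs1, the desaturases, Dgat2, Lipa, Abcg1 and Soat1 were described after their values were seen. The members and lists were chosen with earlier results of these data known, and the lists were written by hand. Tables were made with Python 3.11.15, pandas 2.3.3 and matplotlib 3.10.9.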

Additional observations from a re-analysis of the deposited data

Results flagged for a closer look

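Among 96 groups of 4 values (levels and within-mouse ratios of the 31 genes and medians of the 3 arms), 11 had a single value that lay far from the rest. Chance alone gives about 4.8 of them (1 in 20). The groups are not independent, since ratios are computed from levels and arm medians from ratios, so the excess cannot be graded. Hmgcs1, Idi1 and Scd2 were each flagged in mouse 70 by both level and ratio. Mouse 70 accounts for most, since 8 of the 11 belong to its E-cadLO cells or its ratio. In E-cadLO cells of mouse 70, Hmgcs1 had 281.2 CPM (94.95 to 113 in the other mice), Idi1 30.05 CPM (15.97 to 18.04) and Scd2 814.9 CPM (171 to 266). The log2 ratio of mouse 70 was 1.298 for Hmgcs1, 0.7034 for Idi1, 0.5925 for Fdft1 and 0.9014 for Scd2, where the other mice lay at or below 0 except for Scd2 in mouse 57 (0.004271). The median log2 ratio of the sterol enzymes in mouse 70 was 0.2579, with -0.4518 to -0.3689 in the others. In E-cadHI cells, Lss had 63.31 CPM in mouse 70 (83.7 to 87.8 in the others), Hmgcs1 had 125.2 CPM in mouse 58 (113 to 114) and Ebp had 78.37 CPM in mouse 58 (102 to 106).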

How the results depend on the processing

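Without a block, edgeR called 0 of 13598 genes, with 1109 higher and 790 lower at an unadjusted p under 0.05. The count was 99 with the replicate block, 429 with DESeq2, 1247 with DESeq2 and the block, 23 with no filter, 3 with at least 10 counts in every library, and 0 to 449 with a mouse left out. Of the 31 genes, DESeq2 called 1, Stard4, lower without the block (-0.7392) and with it (-0.7410), and the block changed no edgeR call of a member. The medians of the 3 arms stayed below 0 in all 16 alternatives of the fit. Their range was -0.473 to -0.1324 for sterol enzymes, lowest without mouse 70 and highest without mouse 57, -0.4803 to -0.0291 for fatty acid enzymes, likewise, and -0.2886 to -0.0687 for regulators and Stard4. With 0.1 or 2 in place of 0.5, or DESeq2's size factors, the median ratio of each arm kept its sign in every mouse except for regulators and Stard4 in mouse 58 (-0.0146 to 0.0057). The sign of 19 genes held throughout and that of 12, none of them called, did not. With the replicate block Scd1 was -0.1611, Fads1 -0.0929 and Fads2 -0.2383, and with DESeq2 and the block they were -0.1455, -0.0769 and -0.2265. Insig2 was 0.0090 with DESeq2, 0.0148 with its size factors, 0.0369 with at least 10 counts and 0.0081 without Gm42418, and Fdft1 was 0.0111 and Srebf2 0.0084 with at least 10 counts. With each mouse left out in turn (without and with the block), the log2 fold changes of the genes whose sign turned ranged from -0.1927 to 0.4850 for Hmgcs1, -0.2965 to 0.0508 for Fdft1, -0.1162 to 0.1692 for Tm7sf2, -0.0915 to 0.3427 for Msmo1, -0.0463 to 0.2574 for Sc5d, -0.4699 to 0.3350 for Scd1, -0.0498 to 0.5544 for Scd2, -0.4803 to 0.3034 for Fads1, -0.7004 to 0.3766 for Fads2, -0.1707 to 0.0907 for Srebf2, -0.0788 to 0.3356 for Insig1 and -0.2507 to 0.1314 for Insig2. For Hmgcs1, Tm7sf2, Msmo1, Scd2 and Insig1 the estimate below 0 was that without mouse 70. The cause of these turns was not tested.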
